A study of Mus musculus with 12 samples.

Results

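The nuclear genes of the mitochondrial respiratory chain and ATP synthase were compared in the lungs of CD-1/ICR mice that were wild type (Nrf2+/+) or deficient (Nrf2-/-) for the transcription factor Nrf2, the product of Nfe2l2. The genes were taken by symbol, as those beginning with Ndufa, Ndufb, Ndufc, Ndufs, Ndufv, Sdha to Sdhd, Uqcr, Cox4 to Cox8 or Atp5, and only probe sets annotated to a single gene were used. The array annotation names 87 such genes on 160 probe sets, among 12394 genes in all. Of these, 86 genes on 153 probe sets passed a filter on dim signals (a scaled signal of at least 100 on at least 3 arrays), which 9333 genes passed in all. The gene that failed it was Ndufb1, an accessory subunit of complex I, whose scaled signal was 27.8 to 110. The 4 groups, of 3 arrays each, were wild-type lungs after 2 h of spontaneous ventilation (WT SpV), wild-type lungs after 2 h of mechanical ventilation with a high tidal volume of 30 ml/kg (WT HVT), and Nrf2-/- lungs after the same 2 regimes (KO SpV and KO HVT). All 12 arrays thus came from the CD-1/ICR background, and the labels used here give neither the age of the mice nor the part of Nfe2l2 that was removed. WT SpV array 1 is described as whole lung and the other 11 arrays as left lobe. Total RNA was hybridised to Murine Genome 430A arrays, a short-oligonucleotide platform on which each probe set gives a signal intensity. The labels do not say that the arrays of a group came from separate animals, so p-values measure only the spread between these samples.

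The respiratory chain lies in the inner mitochondrial membrane. Complex I, the NADH dehydrogenase built from the Nduf subunits, and complex II, the succinate dehydrogenase, pass electrons to ubiquinone, complex III passes them on to cytochrome c and complex IV passes them to oxygen, and ATP synthase uses the resulting proton gradient to make ATP. Complex IV has subunits that exist as isoform pairs: Cox6a2, Cox7a1 and Cox8b are the forms of heart and skeletal muscle (Cox7a1 and Cox8b also of brown fat), and Cox6a1, Cox7a2 and Cox8a are the widely expressed forms. Nrf2 (Nfe2l2) activates antioxidant genes through the antioxidant response element. It is a different protein from nuclear respiratory factor 1 and from the ETS-family factor GABP, which act on many respiratory chain promoters.

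Promoter windows running from 250 bases before to 50 bases after the annotated start were found in RefSeq (build GRCm38.p6) for 72 of the 86 genes, in 77 windows, and were searched on both strands for 5 motifs. The nuclear respiratory factor 1 motif GCATGCGC was in 14.3% of these windows, against 2.71% of all 32851 windows in the table. The ETS motif CCGGAAG was in 26.0% against 8.86%, the YY1 motif AAGATGGC in 11.7% against 2.75%, and the ESRRA motif TCAAGGTCA in 2.6% against 0.423%. The core of the antioxidant response element, TGACNNNGC, was in 15.6% against 12.4%. Median GC content was 58.7% in these windows and 52.7% in all windows, and the median number of CpG dinucleotides was 19 against 7, so the letters compared are not drawn from like backgrounds. The windows of the muscle isoforms Cox7a1 and Cox8b are shown with those of their widely expressed partners Cox7a2 and Cox8a, because these isoforms had large differences with Nrf2 loss in ventilated lungs, and those of Cox6a1, Ndufb7 and Ndufc1 because their levels are described below. Each is written 5' to 3' along the gene's own strand, with matches to any of the 5 motifs in capitals:
Cox7a1, chr7:30183921-30184220, + strand: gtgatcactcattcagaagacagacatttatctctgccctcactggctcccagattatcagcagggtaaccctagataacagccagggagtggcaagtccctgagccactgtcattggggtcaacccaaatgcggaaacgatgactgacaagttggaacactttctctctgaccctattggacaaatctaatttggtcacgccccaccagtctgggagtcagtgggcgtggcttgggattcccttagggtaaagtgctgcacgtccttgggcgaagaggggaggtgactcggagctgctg
Cox7a2, chr9:79759804-79760103, - strand: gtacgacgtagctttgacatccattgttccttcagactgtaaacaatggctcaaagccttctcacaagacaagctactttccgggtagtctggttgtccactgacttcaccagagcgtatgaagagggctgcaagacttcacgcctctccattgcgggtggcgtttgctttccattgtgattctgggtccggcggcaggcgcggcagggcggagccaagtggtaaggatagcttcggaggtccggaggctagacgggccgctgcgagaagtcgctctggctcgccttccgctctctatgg
Cox8b, chr7:140900397-140900696, - strand: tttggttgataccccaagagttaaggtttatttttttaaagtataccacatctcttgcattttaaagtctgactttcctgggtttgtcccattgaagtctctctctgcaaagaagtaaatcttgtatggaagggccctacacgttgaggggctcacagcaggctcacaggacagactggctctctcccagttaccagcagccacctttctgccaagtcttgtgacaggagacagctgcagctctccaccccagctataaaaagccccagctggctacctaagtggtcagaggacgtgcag
Cox8a, chr19:7217567-7217866, - strand: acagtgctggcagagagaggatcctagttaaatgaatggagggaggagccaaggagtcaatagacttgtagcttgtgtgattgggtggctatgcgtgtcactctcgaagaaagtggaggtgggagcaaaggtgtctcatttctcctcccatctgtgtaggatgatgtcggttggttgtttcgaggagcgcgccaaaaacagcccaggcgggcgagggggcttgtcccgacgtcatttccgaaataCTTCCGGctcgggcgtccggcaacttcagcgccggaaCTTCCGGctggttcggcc
Cox6a1, chr5:115348909-115349208, - strand: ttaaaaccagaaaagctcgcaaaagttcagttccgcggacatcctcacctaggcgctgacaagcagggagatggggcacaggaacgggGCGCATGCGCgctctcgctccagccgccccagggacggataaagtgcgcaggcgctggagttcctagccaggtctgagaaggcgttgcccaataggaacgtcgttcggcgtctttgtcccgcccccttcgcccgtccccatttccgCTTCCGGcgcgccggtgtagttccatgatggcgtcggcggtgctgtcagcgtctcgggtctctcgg
Ndufb7, chr8:83566508-83566807, + strand: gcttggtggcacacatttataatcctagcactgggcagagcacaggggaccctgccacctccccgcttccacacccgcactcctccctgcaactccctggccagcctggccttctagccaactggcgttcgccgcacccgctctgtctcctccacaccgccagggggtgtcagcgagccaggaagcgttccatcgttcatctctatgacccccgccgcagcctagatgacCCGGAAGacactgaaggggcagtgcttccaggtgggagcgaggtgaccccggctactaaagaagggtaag
Ndufc1, chr3:51408906-51409205, - strand: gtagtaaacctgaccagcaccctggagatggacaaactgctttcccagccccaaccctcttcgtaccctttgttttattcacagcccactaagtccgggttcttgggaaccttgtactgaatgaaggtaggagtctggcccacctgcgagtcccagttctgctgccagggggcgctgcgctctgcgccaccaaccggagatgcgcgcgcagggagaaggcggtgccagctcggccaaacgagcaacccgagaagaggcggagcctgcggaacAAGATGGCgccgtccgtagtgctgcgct
The Cox7a1 window had 7 CpG dinucleotides and the Cox8b window 2, whereas the Cox7a2 window had 20 and the Cox8a window 19. Neither the Cox7a1, the Cox8b nor the Cox7a2 window held any of the 5 motifs, which says only that these letters are not in these windows. The Cox8a window held 2 ETS matches, the Cox6a1 window an ETS match and nuclear respiratory factor 1 matches on both strands, the Ndufb7 window an ETS match and the Ndufc1 window a YY1 match. None of the 7 windows shown held the core of the antioxidant response element.

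Several facts about the whole arrays bear on these genes. Nfe2l2 itself had signals of 2144.3 to 3298.2 on the wild-type arrays and 36.2 to 61.3 on the Nrf2-/- arrays, and the lung markers Sftpc (surfactant protein C of alveolar type II cells) and Scgb1a1 (the club cell secretory protein) were at 12126.4 to 26277 and 22099.6 to 26277 on the 12 arrays. Brightness before scaling, as the trimmed mean of an array, was 363 ± 54.9 (SD, n = 3) in WT SpV, 386 ± 92.5 in WT HVT, 330 ± 222 in KO SpV and 207 ± 34.5 in KO HVT. KO SpV array 1 stood apart, with a trimmed mean of 73.9, a 3'/5' actin ratio (a measure of RNA integrity) of 8.76 against 1.39 to 3.10 on the other 11 arrays, and a mean correlation with the other arrays of 0.874 against 0.923 to 0.944. KO HVT array 2 stood apart by its muscle markers: the summed signal of 9 skeletal muscle genes was 67298.5 there, 59-fold above the next highest, and 516.6 to 1141.4 on the other 11 arrays. Acta1, the skeletal muscle actin, was at 15456.3 on that array and at 121.9 to 355 on the others, and Myh1, a fast myosin heavy chain, was at 14565.3 against at most 93.0. The summed signal of 18 heart muscle genes was 35300.2 to 52064.1 in WT SpV, 32934.1 to 56829.9 in WT HVT, 59365.1 to 75153.4 in KO SpV and 76627.1 to 113746 in KO HVT, and so lay higher in every Nrf2-/- array than in any wild-type array. Of these genes, Myh6, Myl4, Nppa, Tnni3, Tnnt2, Mybpc3, Sln and Csrp3 separated the genotypes in this way. Myl7, Tnnc1, Actc1, Mb, Ckmt2, Ryr2, Pln, Myl3, Myl2 and Fabp3 overlapped between them. The 7 fat markers summed to 554.6 to 1436.9 on the other 11 arrays and to 2457.7 on KO HVT array 2. Adipoq was at 1138.7 on that array (at most 431.4 on the others), Retn at 731.3 (at most 613.9) and Lep at 120.6 (at most 36.6). Cidea, Elovl3, Dio2 and the brown fat uncoupler Ucp1, which was at 4.7, were not highest there. The actin ratio also differed between the ventilated groups, at 3.10, 2.21 and 3.02 in KO HVT against 1.99, 1.58 and 1.53 in WT HVT.

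**Figure D1:**
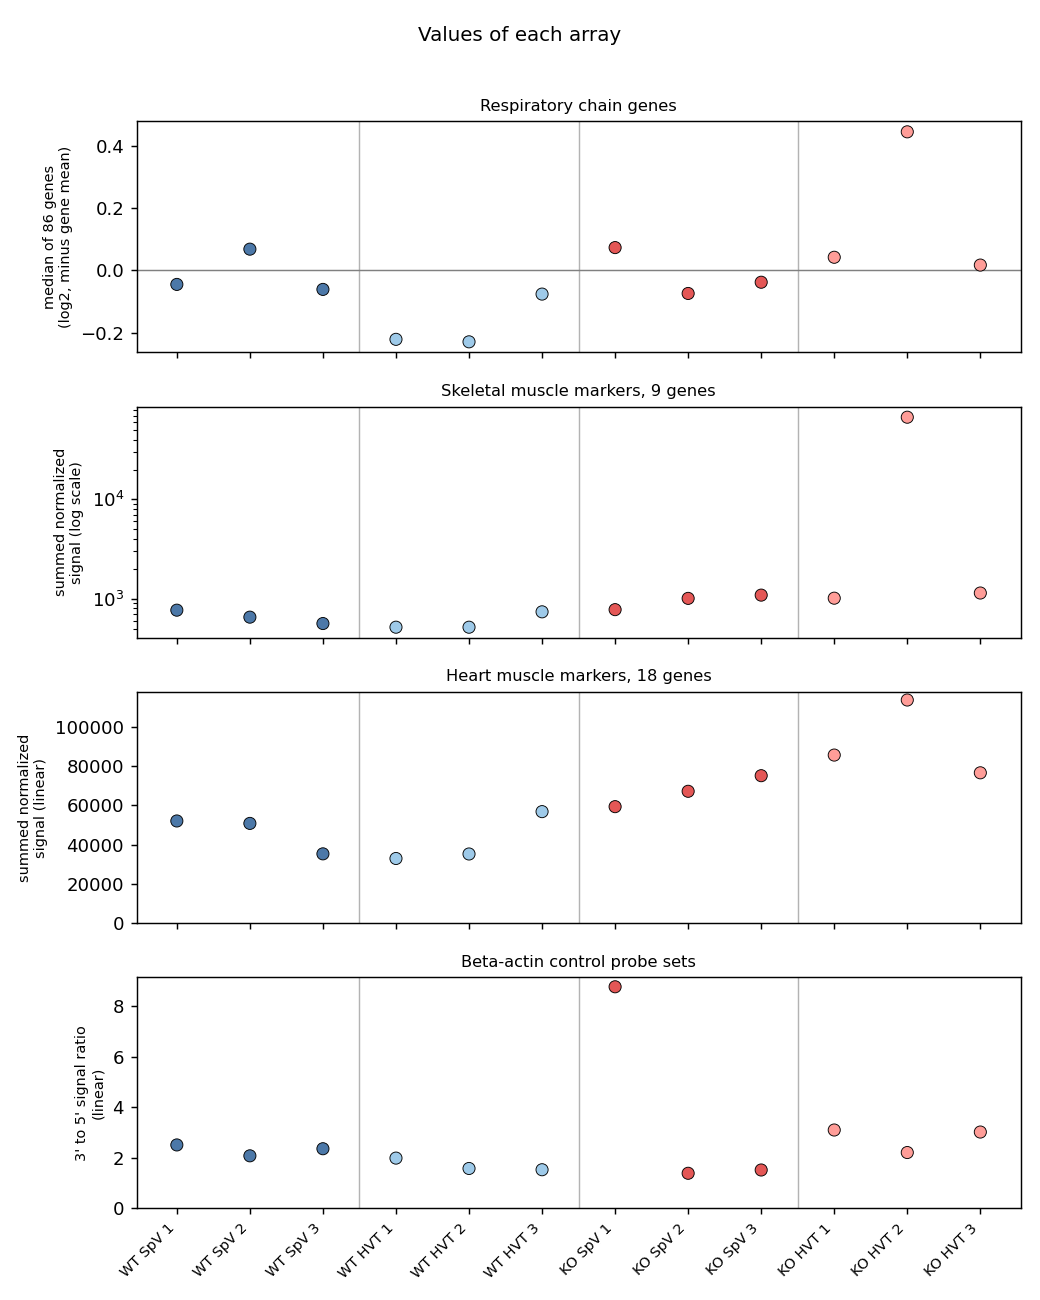
Measures of each array, as points by group: the median of the 86 respiratory chain genes (log2 signal minus the gene's mean over 12 arrays), the summed normalized signal of 9 skeletal muscle markers on a log axis, that of 18 heart muscle markers, and the 3'/5' actin signal ratio. KO HVT array 2 reaches 0.444 for the respiratory chain genes and 67298.5 for the skeletal muscle markers, and KO SpV array 1 reaches an actin ratio of 8.76.

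As a set, and on the scaled arrays, the respiratory chain genes were lowest in WT HVT, and on 1 array of KO HVT they were higher than on any other array. The SpV groups and the other 2 KO HVT arrays lay between. The median over the 86 genes, each taken as log2 signal minus its own mean over the 12 arrays, was -0.045, 0.068 and -0.061 on the WT SpV arrays, -0.221, -0.229 and -0.076 on the WT HVT arrays, 0.073, -0.074 and -0.038 on the KO SpV arrays and 0.042, 0.444 and 0.017 on the KO HVT arrays. The 3 WT HVT arrays lay below every other array, the 2 SpV groups overlapped, and the spread within KO HVT (SD 0.240) came from array 2, as the SDs of the other 3 groups were 0.070 to 0.086. On KO HVT array 2, 71 of the 86 genes had the highest signal of their group and 51 had the highest of all 12 arrays; over all genes these shares were 29.6% and 7.96%. Members that exceeded the mean of the other 2 KO HVT arrays most on that array were Cox8b (by 2.21 on the log2 scale), Cox7a1 (1.18), Atp5g1, which encodes the membrane ring subunit c (1.09), Uqcrc1, a core protein of complex III (1.06), and Ndufa10, a complex I subunit (1.01). Fewer cells of a type and less RNA per cell cannot be told apart in such tissue samples.

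**Figure D2:**
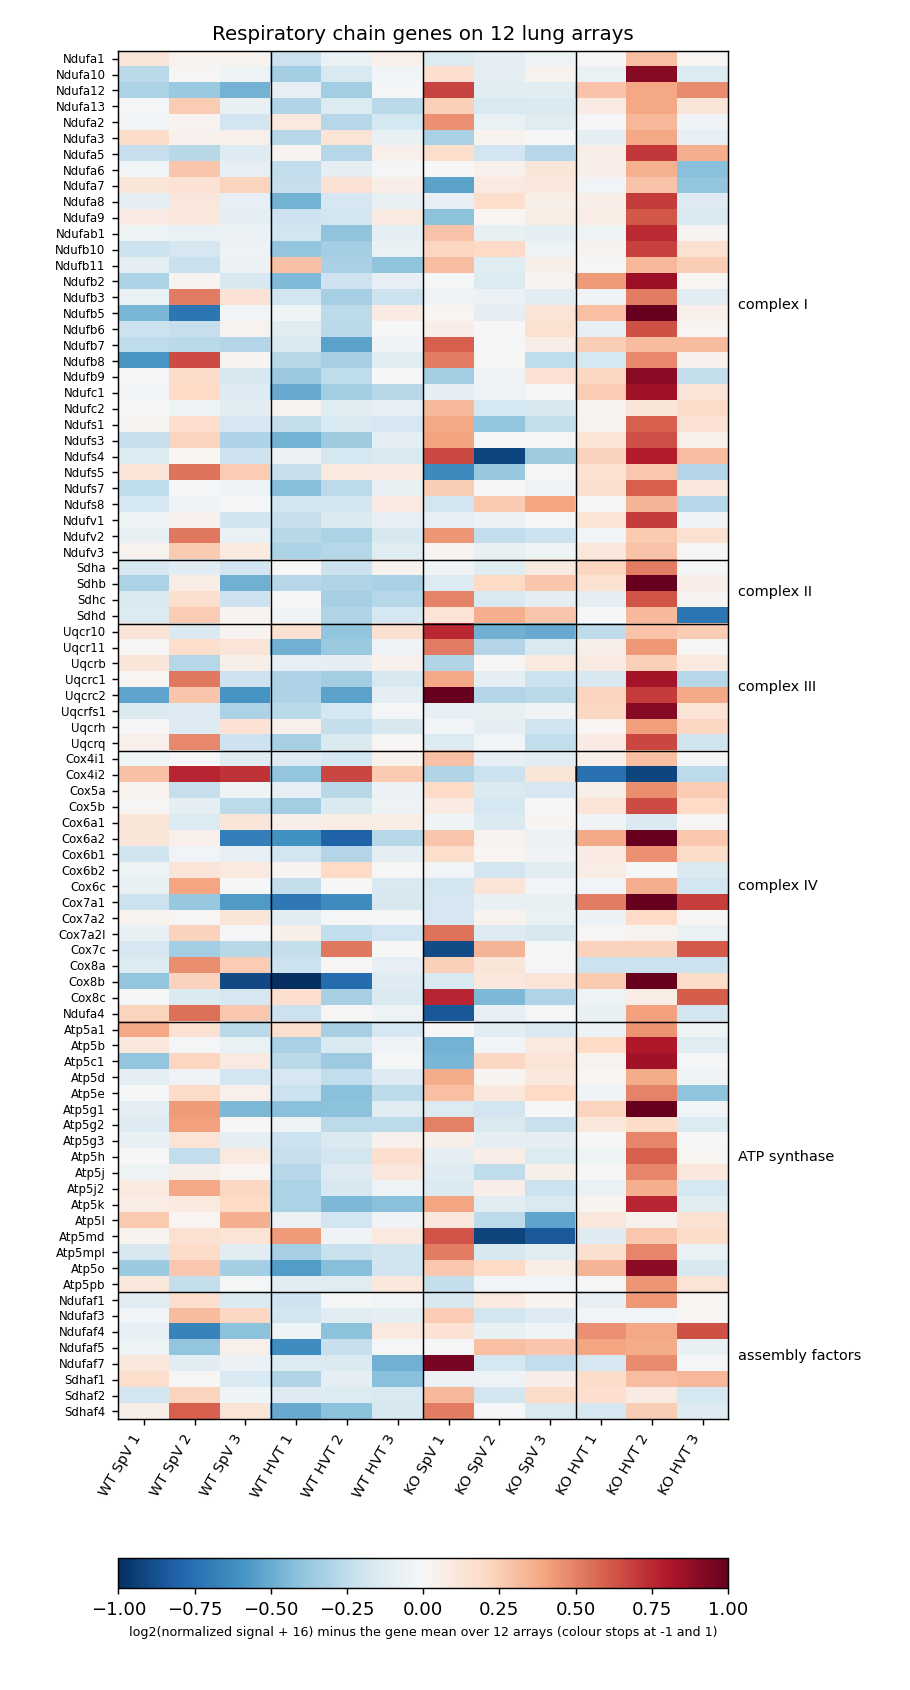
Heat map of the 86 respiratory chain genes (rows, grouped by complex) on the 12 arrays (columns, by group), coloured by log2 normalized signal minus the gene's mean, with the colour scale ending at -1 and 1. The WT HVT columns are mostly below the mean (array medians -0.229 to -0.076), and the KO HVT array 2 column is mostly above it (0.444).

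Ventilation of wild-type lungs was compared first, as WT HVT against WT SpV. The respiratory chain genes were lower by a small amount, with a median log2 difference of -0.145 over the 86 genes against -0.036 over all 9333 genes. By sign, 72 were below 0 and 14 above. No member passed the threshold in limma's moderated test (Benjamini-Hochberg adjusted p under 0.05 over 9333 genes), where 0.075% of all genes were called, and 5 were lower and 0 higher at an unadjusted p under 0.05 (3.53% and 4.45% of all genes). In 18 members every WT HVT array lay below every WT SpV array, which is 20.9% of them, while 9.15% of all genes did so; no member lay the other way, against 7.9% of all genes. The 18 were spread over complex I (Ndufa13, Ndufab1, Ndufb3, Ndufc1, Ndufs5, Ndufv2 and Ndufv3), complex III (Uqcr11), complex IV (Cox7a2 and Ndufa4), ATP synthase (Atp5e, Atp5j2, Atp5k, Atp5l and Atp5mpl) and the assembly factors (Ndufaf3, Ndufaf7 and Sdhaf4). Without WT SpV array 1, the whole-lung sample, the median was -0.159 and 27 members lay wholly below, against 16.4% of all genes. The summed signal of 4 red cell markers was also lower, at 2812.6 to 3219.7 in WT SpV and 948.3 to 1345.2 in WT HVT. Most of the sum was Alas2, at 2520 to 2799 against 857.7 to 1189.1. Slc4a1 lay wholly lower too, while Hba-a1 and Epb42 were dim and overlapped. The actin ratio was lower too, at 2.51, 2.08 and 2.36 in WT SpV and 1.99, 1.58 and 1.53 in WT HVT, and the part of these in the result was not tested.

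Ventilation of Nrf2-/- lungs, KO HVT against KO SpV, gave the opposite sign with all arrays included. The median log2 difference was 0.193 against 0.002 over all genes, with 74 members above 0 and 12 below; on the deposited values without scaling it was -0.076, where the median of all genes was -0.283. No member was called by limma, nor was any of the 9333 genes (0% called), and 8 members were higher and 0 lower at an unadjusted p under 0.05 (4.61% and 6.01% of all genes). In 10 members every KO HVT array was above every KO SpV array (6.76% of all genes were), namely Ndufa1, Ndufc1, Uqcrfs1, Uqcrh, Cox5b, Cox7a1, Cox8b, Atp5pb, Ndufaf4 and Sdhaf1. Cox8a alone lay wholly below, against 7.53% of all genes. Without KO HVT array 2 the median was 0.054, with 53 above 0 and 33 below, and 11 members lay wholly above and 4 wholly below, where 10.5% of all genes did in each direction. Without KO SpV array 1 instead, the median was 0.235 and 3 members were called higher (3.49% of them, against 6.57% of all genes called in either direction), and 40 lay wholly above, against 23.9% of all genes. With both arrays left out the median was 0.093, and Atp5md and Ndufs4 passed the test, 2.33% of the members against 4.78% of all genes. Heart muscle sums were wholly higher in KO HVT than in KO SpV (76627.1 to 113746 against 59365.1 to 75153.4), and wholly lower were those of 8 neutrophil markers (3861.7 to 6142.9 against 6476.1 to 22706.2) and of the red cell markers (943.1 to 1072.0 against 1118.8 to 3489.7). Of the neutrophil and red cell genes, S100a8, S100a9, Mmp8, Cxcr2, Ngp, Camp and Slc4a1 lay wholly lower. Ltf, Csf3r, Alas2, Hba-a1 and Epb42 overlapped. Alas2 was at 529.2 on KO SpV array 1 and at 777.5 to 847.4 in KO HVT. Of the heart muscle genes, Myl4, Nppa, Tnni3, Actc1, Mb, Mybpc3, Pln, Myl3 and Myl2 overlapped and the others lay wholly higher. The part of these sums in the result was not tested.

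Members called in this comparison once KO SpV array 1 was left out were Atp5md, a small membrane subunit of ATP synthase, Ndufs4, an accessory subunit of complex I, and Ndufa12, another accessory subunit; they are named after their values were seen. Atp5md signals were 2559.9, 856.4 and 911.5 in KO SpV and 1503.9, 1987.5 and 1872.9 in KO HVT. KO SpV array 1 was above all KO HVT arrays, and the other 2 KO SpV arrays were below them. The log2 difference was 0.49 ± 0.33 (SE; limma adjusted p = 0.631) with all arrays and 0.995 ± 0.166 (adjusted p = 0.00721) without array 1. Ndufs4 had 1051.6, 341.8 and 510 in KO SpV against 775.1, 1148.5 and 819.8 in KO HVT, for a difference of 0.65 ± 0.31 (adjusted p = 0.491) and, without array 1, 1.085 ± 0.203 (adjusted p = 0.0116). KO SpV array 1, the array with the actin ratio of 8.76, was again the highest of its group. Ndufa12 differed by 0.487 ± 0.132 (adjusted p = 0.0465) without array 1.

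**Figure D3:**
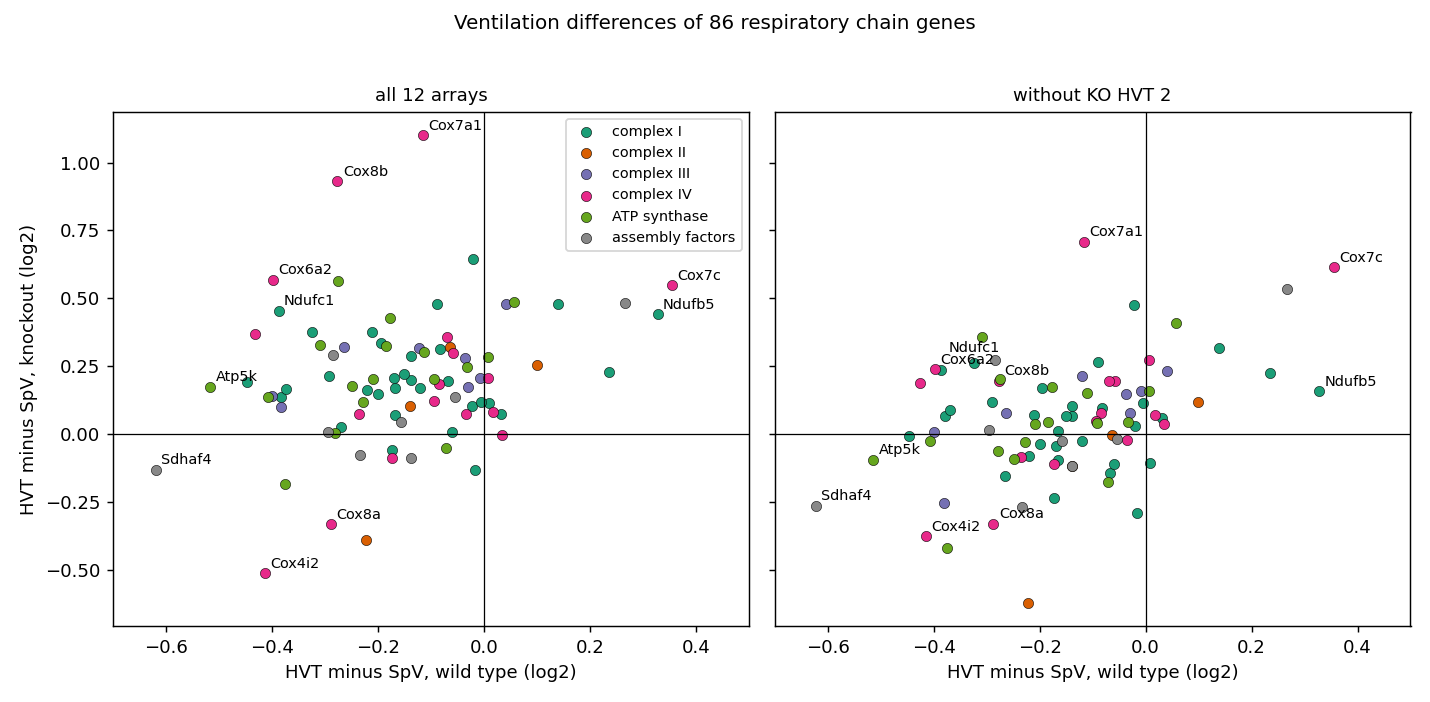
Log2 difference with ventilation in wild-type lungs (x axis, WT HVT minus WT SpV) against that in Nrf2-/- lungs (y axis, KO HVT minus KO SpV), one point for each of the 86 genes, coloured by complex, for all 12 arrays and without KO HVT array 2. With all arrays 61 genes lie in the upper left quadrant, and without KO HVT array 2, 40 do.

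The sign of the ventilation difference was opposed in the genotypes for 61 of 86 members, lower in wild-type and higher in Nrf2-/- lungs, which is 70.9% of them against 22.4% of all genes. A further 13 were higher in both genotypes, 11 lower in both and 1 had the reverse pattern. The count was 40 (46.5%) without KO HVT array 2, when 22.8% of all genes had this pattern, 63 without KO SpV array 1 and 47 without both. Tested as an interaction, the difference between the ventilation effects had a median of 0.336 over the members and 0.023 over all genes (-0.002 and -0.312 on the unscaled values). No member was called by limma, and 0% of all genes were; 13 members were higher and 0 lower at an unadjusted p under 0.05 (2.13% and 2.75% of all genes). Without KO HVT array 2 the median interaction was 0.177, with 74 members above 0 and 12 below. Ndufc1, an accessory subunit of the membrane arm of complex I, had the smallest interaction p of that complex. Its signals were 1624.7, 1897.4 and 1507.2 in WT SpV, 1164.6, 1295.5 and 1364.0 in WT HVT, 1547.1, 1592.9 and 1667.4 in KO SpV and 1972.6, 2974.4 and 1814.0 in KO HVT. All WT HVT arrays were below all WT SpV arrays, and all KO HVT arrays were above all KO SpV arrays. The log2 differences were -0.39 ± 0.18 in wild-type (adjusted p = 0.634) and 0.45 ± 0.18 in Nrf2-/- lungs (adjusted p = 0.397; 0.236 without KO HVT array 2), and the interaction was 0.84 ± 0.26 (unadjusted p = 0.00618, adjusted p = 1) or, without KO HVT array 2, 0.62 ± 0.21. A further Ndufc1 probe set gave -0.319 and 0.101.

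Loss of Nrf2 in spontaneously breathing lungs, KO SpV against WT SpV, left the respiratory chain genes centred near 0. The median log2 difference was 0.010 against -0.013 over all genes, with 44 members above 0 and 42 below (unscaled, -0.463 against -0.468). limma called no member, against 0.332% of all genes, and 2 were higher and 4 lower at an unadjusted p under 0.05 (6.59% and 7.09% of all genes). Every KO SpV array lay above every WT SpV array for 7 members (8.91% of all genes), Ndufa12, Ndufb10, Ndufb7, Uqcrfs1, Cox7a1, Atp5d and Ndufaf4. It lay below for 8 members (9.5% of all genes), Ndufa1, Ndufa3, Ndufa7, Ndufs5, Ndufv3, Cox4i2, Ndufa4 and Atp5j2. These shares, 8.14% and 9.30% of the members, were near those of all genes. Without KO SpV array 1 the median was -0.033, and Atp5l (-0.604 ± 0.14, adjusted p = 0.0494) and Atp5md (-0.993 ± 0.166, adjusted p = 0.0114) were called lower, or 2.33% of the members against 1.89% of all genes called. Heart muscle sums were wholly higher in KO SpV than in WT SpV, and those of endothelium (7992.9 to 15996.4 against 16737.2 to 22193.8) and type I cells (11962 to 24697 against 24886.7 to 34558.2) wholly lower. Among the endothelial and type I cell markers, Kdr, Tie1, Cldn5, Vwf, Ager, Aqp5 and Hopx overlapped. So did the heart muscle genes Myl7, Actc1, Mb, Ckmt2, Ryr2, Myl3, Myl2 and Fabp3. The part of these sums in the single-gene differences was not tested.

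Loss of Nrf2 in ventilated lungs, KO HVT against WT HVT, gave the most members whose groups were separated, of the 4 comparisons between groups. The median log2 difference was 0.347 against 0.015 over all genes, with 80 members above 0 and 6 below; on the unscaled values it was -0.496, and the median of all genes -0.766, so that the members lay 0.270 above the other genes there. By limma 1 member, Cox7a1, was called higher, where 0.739% of all genes were called (0.332% as higher), and 32 members were higher (37.2%) and 1 lower (1.16%) at an unadjusted p under 0.05, against 6.32% and 6.53% of all genes. In 36 members (41.9%) every KO HVT array was above every WT HVT array, while this held for 12.4% of all genes. Cox6a1 lay the other way, as did 12.9% of all genes. Without KO HVT array 2 the median was 0.185, with 74 above 0 and 12 below, no member was called, and 36 members lay wholly above, against 18.9% of all genes. Without KO SpV array 1, which is in neither group, 5 members were called (Cox7a1, Cox6a2, Ndufa12, Ndufb7 and Ndufc1), or 5.81% of them, near the 5.23% of all genes called; without both arrays Cox7a1 was called, or 1.16% against 3.54%. The count was also 0 when WT SpV array 1, 2 or 3, WT HVT array 1 or 2, KO SpV array 3 or KO HVT array 3 was left out. The 83 members other than the 3 muscle isoforms had a median of 0.341, 77 of them above 0, and 0.171, with 71 above 0, without KO HVT array 2.

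Other measurements moved with this comparison. Of the 18 heart muscle genes, 8 were called higher in KO HVT than in WT HVT (0.332% of all genes were), and their median log2 difference was 1.418, or 1.139 with 0 called by limma without KO HVT array 2. Markers of endothelium (8 genes) summed to 12736.8 to 19897.8 in WT HVT and 7463.4 to 9334.3 in KO HVT, and 5 markers of alveolar type I cells to 20479.9 to 29973.1 and 9695.7 to 14783. Macrophage markers (5 genes) summed to 2779.5 to 3059.9 in WT HVT and 1207.8 to 1735.1 in KO HVT, and 7 markers of ciliated and club cells to 64718.4 to 72138 and 74388.1 to 75988.5. Not every gene followed its sum. Of the endothelial genes, Kdr and Vwf overlapped. Chil3 and Mrc1 lay wholly lower, while the macrophage genes Adgre1, Cd68 and Marco overlapped. Tekt1, Rsph1, Scgb3a2 and Cyp2f2 lay wholly higher, while Foxj1 and Tppp3 overlapped and Scgb1a1 tied at 24052.4. The sums of the type II cell markers overlapped, at 58425.8 to 68106.5 and 57572.1 to 64776.7. The 44 cytosolic ribosomal protein genes had a median difference of -0.032. Their part in the result, and that of the actin ratio and of the dimmer KO HVT arrays, was not tested.

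**Figure D4:**
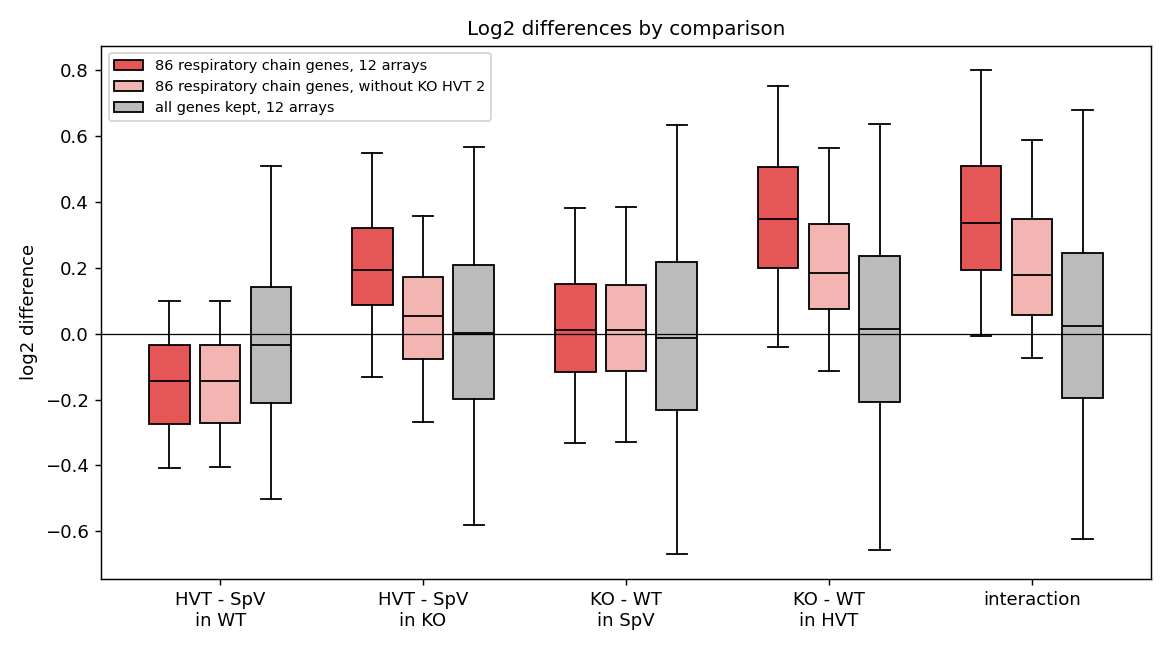
Log2 differences in each comparison for the 86 respiratory chain genes on 12 arrays, the same genes without KO HVT array 2, and all 9333 genes; boxes show the quartiles, lines in them the median, and whiskers the 5th to 95th percentiles. For Nrf2 loss in ventilated lungs the medians are 0.347, 0.185 and 0.015, and without scaling the first is -0.496.

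Averaged over both kinds of breathing, genotype was the comparison with most calls. The median was 0.181 against 0.008 over all genes (unscaled, -0.480 against -0.610), with 73 members above 0. Cox7a1 and Ndufb7 rose and Cox4i2 fell in Nrf2-/- lungs by limma's test, at 3.73% of all genes called (1.6% higher and 2.13% lower), and 22 members were higher (25.6%) and 1 lower (1.16%) at an unadjusted p under 0.05, against 10.4% and 10.9% of all genes. Without KO HVT array 2, Cox7a1 alone was called and the median was 0.104. These 3 are 3.49% of the members, which is near the share of all genes. The count was 5 without KO SpV array 1 (5.81%, against 6.79% of all genes), 2 without WT HVT array 3 or KO SpV array 3, 1 without WT SpV array 1, WT HVT array 1 or KO HVT array 1 or 3, and 0 without WT SpV array 2 or 3 or WT HVT array 2; leaving out 1 array, 1.31% to 6.79% of all genes were called. Ventilation averaged over both genotypes had a median of 0.030, and limma called no member (0.107% of all genes; 0.075% higher and 0.0321% lower), with 4 higher and 3 lower at an unadjusted p under 0.05 (6.13% and 7.16% of all genes), and 3 members called without KO SpV array 1 (3.49%, against 7.07% of all genes).

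Complex I was the largest group, with 32 subunits kept. Their median log2 difference was -0.144 with ventilation in wild-type lungs, 0.193 with ventilation in Nrf2-/- lungs (0.066 without KO HVT array 2), 0.052 with Nrf2 loss under SpV and 0.413 with Nrf2 loss under HVT (0.214 without KO HVT array 2). In the last comparison 31 of 32 were above 0. In 16 every KO HVT array was above every WT HVT array, which held for 12.4% of all genes. Ndufb7, a subunit of the membrane arm, was the complex I gene that passed the test. Its signals were 3186.1, 3142.2 and 3098.0 in WT SpV, 3416.5, 2618.7 and 3701.5 in WT HVT, 5742.0, 3773.5 and 3968.9 in KO SpV and 4504.7, 4729.6 and 4729.6 in KO HVT. All 6 Nrf2-/- arrays were above all 6 wild-type arrays, and KO SpV array 1 was the highest. Ndufb7 rose 1.43-fold with Nrf2 loss averaged over breathing (log2 0.51 ± 0.12, limma adjusted p = 0.0379, with 0.007 to 0.805 over 26 alternative settings, 14 of them under 0.05). Without KO HVT array 2 it was 0.50 ± 0.13 (adjusted p = 0.0779), and the call was also lost without WT SpV array 1, 2 or 3, WT HVT array 1 or 2, or KO HVT array 1 or 3 (adjusted p = 0.0598 to 0.0994). A further probe set of the gene gave 0.293.

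Ndufa12 was close to the threshold and is described because it passed in some settings. The 3 WT SpV arrays gave 2367.2, 2272.6 and 2116.0, the WT HVT arrays 2777.0, 2310.7 and 2911.5, the KO SpV arrays 4712.7, 2726.6 and 2741.2 and the KO HVT arrays 3596.2, 3865.2 and 4102.6. Both Nrf2-/- groups lay above the wild-type group with the same breathing, and KO SpV array 1 was far above its group. The average genotype difference was 0.54 ± 0.14 (limma adjusted p = 0.0507) and, without KO SpV array 1, 0.404 (adjusted p = 0.0178).

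Ndufv3, a small subunit near the NADH-binding site, had the smallest p of complex I for ventilation in wild-type lungs. Signals were 2757.3, 3215.4 and 2880.4 in WT SpV, 2148.5, 2202.9 and 2473.6 in WT HVT, 2734.9, 2553.9 and 2610 in KO SpV and 2902.9, 3276 and 2709.7 in KO HVT. The WT HVT arrays lay below those of every other group. The differences were -0.37 ± 0.13 with ventilation in wild-type lungs (limma adjusted p = 0.44) and 0.38 ± 0.13 with Nrf2 loss under HVT (adjusted p = 0.224), neither past the threshold.

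Ndufs5, a subunit of the membrane arm, differed most by its p under SpV. It had 1176.3, 1574.9 and 1287.5 in WT SpV, 915.2, 1150.7 and 1142.1 in WT HVT, 684.5, 824.7 and 1084.7 in KO SpV and 1194, 1301 and 873.5 in KO HVT. WT SpV lay above WT HVT and above KO SpV, while KO HVT overlapped all 3 other groups. The difference with Nrf2 loss was -0.64 ± 0.21 under SpV (limma adjusted p = 0.207) and 0.06 ± 0.21 under HVT (-0.058 without KO HVT array 2). A probe set shared by Ndufs5 and its pseudogene Ndufs5-ps, left out of the list, gave -0.553 under SpV.

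For Ndufc1 the KO HVT arrays given above lay above all WT HVT arrays, a difference of 0.78 ± 0.18 (1.72-fold; limma adjusted p = 0.0838, and 0.0203 to 0.888 over the alternatives) or, without KO HVT array 2, 0.56 ± 0.155 (adjusted p = 0.218). Ndufa5, a subunit of the peripheral arm, had 1660.3, 1288.1 and 1204.6 in KO SpV and 1542.1, 2405.4 and 1899.3 in KO HVT, which overlapped, with a difference of 0.48 ± 0.19 (adjusted p = 0.392; 0.316 without KO HVT array 2). The wild-type arrays of this gene lay between 1201.3 and 1523.9. Ndufa1, an essential membrane subunit, had 5399.8 to 5715.3 in KO SpV and 5903.3 to 7306.2 in KO HVT, which did not overlap, with a difference of 0.20 ± 0.12 (adjusted p = 0.584; 0.102 without KO HVT array 2).

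All 4 subunits of complex II, the enzyme shared with the citric acid cycle, were above 0 with Nrf2 loss under HVT, with a median of 0.341 (0.161, 3 of 4 above 0, without KO HVT array 2), and none was called. Sdhb, the iron-sulphur subunit, had 1349.5, 1775.5 and 1202.1 in WT SpV, 1378.7, 1362.8 and 1342.8 in WT HVT, 1529.4, 1940.1 and 2044.8 in KO SpV and 1871.3, 3588.4 and 1767 in KO HVT. The KO HVT arrays were all above the WT HVT arrays, with array 2 far above the other 2. The difference was 0.74 ± 0.25 (limma adjusted p = 0.223), and 0.41 ± 0.19 (adjusted p = 0.467) without array 2. Sdha, the flavoprotein that oxidises succinate, had 2205.4, 1889.9 and 2255.1 in WT HVT and 2548.8, 3128.9 and 2165.4 in KO HVT, which overlapped (0.29 ± 0.15, and 0.153 without KO HVT array 2). Sdhd, a membrane anchor, was 1030.9, 1209.6 and 1141.9 in KO SpV and 943, 1181.9 and 558.5 in KO HVT, lower by 0.39 on the log2 scale (-0.39 ± 0.23) where Sdha was higher by 0.26 ± 0.15; both sets of groups overlapped, and without KO HVT array 2 the values were -0.621 and 0.118.

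In complex III all 8 subunits were above 0 with Nrf2 loss under HVT, with a median of 0.369 and, without KO HVT array 2, 0.179 with 8 of 8 still above 0. In 4 of them every KO HVT array was above every WT HVT array (12.4% of all genes), and none was called. Uqcrfs1, the Rieske iron-sulphur protein, had 1617.2, 1634.9 and 1429.1 in WT SpV, 1480.4, 1579.3 and 1762.2 in WT HVT, 1686.1, 1698.8 and 1747.6 in KO SpV and 2067.1, 3377.2 and 1962.7 in KO HVT. KO HVT lay above every other group, by 0.57 ± 0.19 over WT HVT (limma adjusted p = 0.213; 0.325 ± 0.145 without KO HVT array 2) and by 0.48 ± 0.19 over KO SpV (adjusted p = 0.392; 0.232 without that array).

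Uqcr11, a small accessory subunit, had 1641.5, 1847.8 and 1785.7 in WT SpV and 1163.6, 1256.8 and 1596.3 in WT HVT, without overlap, for a difference of -0.40 ± 0.21 (limma adjusted p = 0.72). Uqcrh, the hinge protein that docks cytochrome c1, had the smallest interaction p of the complex, with 3038.4, 2766.6 and 3343.1 in WT SpV, 3141.3, 2563.4 and 2706.3 in WT HVT, 2972.5, 2839.5 and 2626 in KO SpV and 3059.9, 4041.1 and 3488 in KO HVT. The Nrf2-/- groups of Uqcrh were separated and the wild-type groups overlapped, and the interaction was 0.44 ± 0.20. Uqcrc2, a core protein, had 4090, 1623.5 and 1648.9 in KO SpV, array 1 being far above the other 2, and 1377.9, 2423.3 and 1318.8 in WT SpV. Its KO HVT signals of 2332.2, 3253 and 2601.4 lay above WT HVT at 1604.6, 1366.3 and 1862.4, by 0.75 ± 0.33 (adjusted p = 0.368). Uqcrb, the ubiquinone-binding protein, differed by 0.18 ± 0.13 under HVT, and its signals of 10071.5 to 14673.5 reached 69.9% of the highest signal on an array.

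Complex IV held the 3 members with the largest differences under Nrf2 loss in ventilated lungs, the muscle isoforms. Of its 17 subunits 13 were above 0 with Nrf2 loss under HVT, with a median of 0.198 (0.102 without KO HVT array 2). Of the 17, 6 lay wholly above and 1 wholly below, against 12.4% and 12.9% of all genes. These 3, Cox6a2, Cox7a1 and Cox8b, had a median of 1.497 (0.887 without KO HVT array 2). Under SpV the same 3 had a median of 0.280, and with ventilation a median of -0.276 in wild-type and 0.932 in Nrf2-/- lungs (0.24 without KO HVT array 2).

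Cox7a1, the muscle form of subunit VIIa, had signals of 715.3, 635.1 and 556.8 in WT SpV, 500.2, 531.0 and 743.4 in WT HVT, 737.0, 789.2 and 789.2 in KO SpV and 1190.2, 2896.2 and 1355.9 in KO HVT. The wild-type groups overlapped, KO SpV lay just above WT SpV, and all 3 KO HVT arrays were above every array of the other groups. It rose 2.82-fold with Nrf2 loss under HVT (log2 1.50 ± 0.28, limma adjusted p = 0.0338, with 0.0103 to 0.511 over 26 alternatives, 16 of them under 0.05), and under SpV the difference was 0.28 ± 0.28. Without KO HVT array 2 the HVT difference was 1.10 ± 0.20 (adjusted p = 0.0637), and without KO SpV array 1 as well, 1.109 ± 0.19 (adjusted p = 0.013). The call was also lost without WT SpV array 1, 2 or 3, WT HVT array 1 or 2, KO SpV array 3 or KO HVT array 3 (adjusted p = 0.0529 to 0.162), with differences of 1.39 to 1.646. With ventilation it differed by 1.10 ± 0.28 in Nrf2-/- lungs (adjusted p = 0.226; 0.708 without KO HVT array 2) and by -0.12 ± 0.28 in wild-type lungs, an interaction of 1.22 ± 0.40 (unadjusted p = 0.00927, adjusted p = 1; 0.82 ± 0.27 without KO HVT array 2). Averaged over breathing it rose 1.85-fold with Nrf2 loss (0.89 ± 0.20, adjusted p = 0.0299, with 0.00511 to 0.751 over the alternatives; 0.69 ± 0.13, adjusted p = 0.0295, without KO HVT array 2), a call lost without WT SpV array 1, 2 or 3, WT HVT array 1 or 2 or KO SpV array 3 (adjusted p = 0.0519 to 0.0849).

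Cox6a2, the muscle form of subunit VIa, had 1966.4, 1871.3 and 1119.0 in WT SpV, 1179.0, 1023.2 and 1479.0 in WT HVT, 2183.8, 1845.2 and 1733.1 in KO SpV and 2348.9, 4486.4 and 2180.2 in KO HVT. KO HVT lay wholly above WT HVT and overlapped KO SpV. The difference under HVT was 1.22 ± 0.28 (2.33-fold; limma adjusted p = 0.0838, with 0.0244 to 0.676 over the alternatives; 0.89 ± 0.25, adjusted p = 0.222, without KO HVT array 2). Cox8b, the muscle form of subunit VIII, had 486.2, 761.1 and 338.3 in WT SpV, 315.6, 371.3 and 590.0 in WT HVT, 578.3, 696.5 and 706.1 in KO SpV and 778.3, 3548.4 and 734.2 in KO HVT. KO HVT lay above WT HVT and KO SpV, with array 2 far above the other 2, and reached into the range of WT SpV. The HVT difference was 1.59 ± 0.50 (3.01-fold; adjusted p = 0.197), or 0.86 ± 0.32 (adjusted p = 0.396) without array 2.

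The widely expressed partners did not share these differences. Cox6a1 had 8129.8, 8244.8 and 8244.8 in WT HVT and 7637.6, 7074.5 and 7881.2 in KO HVT, wholly below, by -0.13 ± 0.11 (-0.081 without KO HVT array 2). Cox7a2 had 7839.3, 8374.6 and 8497.3 in WT HVT and 8141.8, 9745.3 and 8555.3 in KO HVT, which overlapped, a difference of 0.09 ± 0.11 (0.020 without KO HVT array 2). Cox8a had 2055.0, 2406.5 and 2248.1 in WT HVT and 2055.0, 2055.0 and 2056.1 in KO HVT, a difference of -0.12 on the log2 scale; against KO SpV, at 2818.9, 2599.0 and 2369.2, its difference of -0.33 was without overlap. The heart muscle sums were higher on every Nrf2-/- array, and each muscle isoform lay wholly higher in KO HVT than in WT HVT. Under SpV, however, Cox6a2 and Cox8b overlapped between the genotypes although the heart muscle sums did not. The skeletal muscle sum and each muscle isoform were highest on KO HVT array 2. The part of these sums in the isoform differences was not tested.

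**Figure D5:**
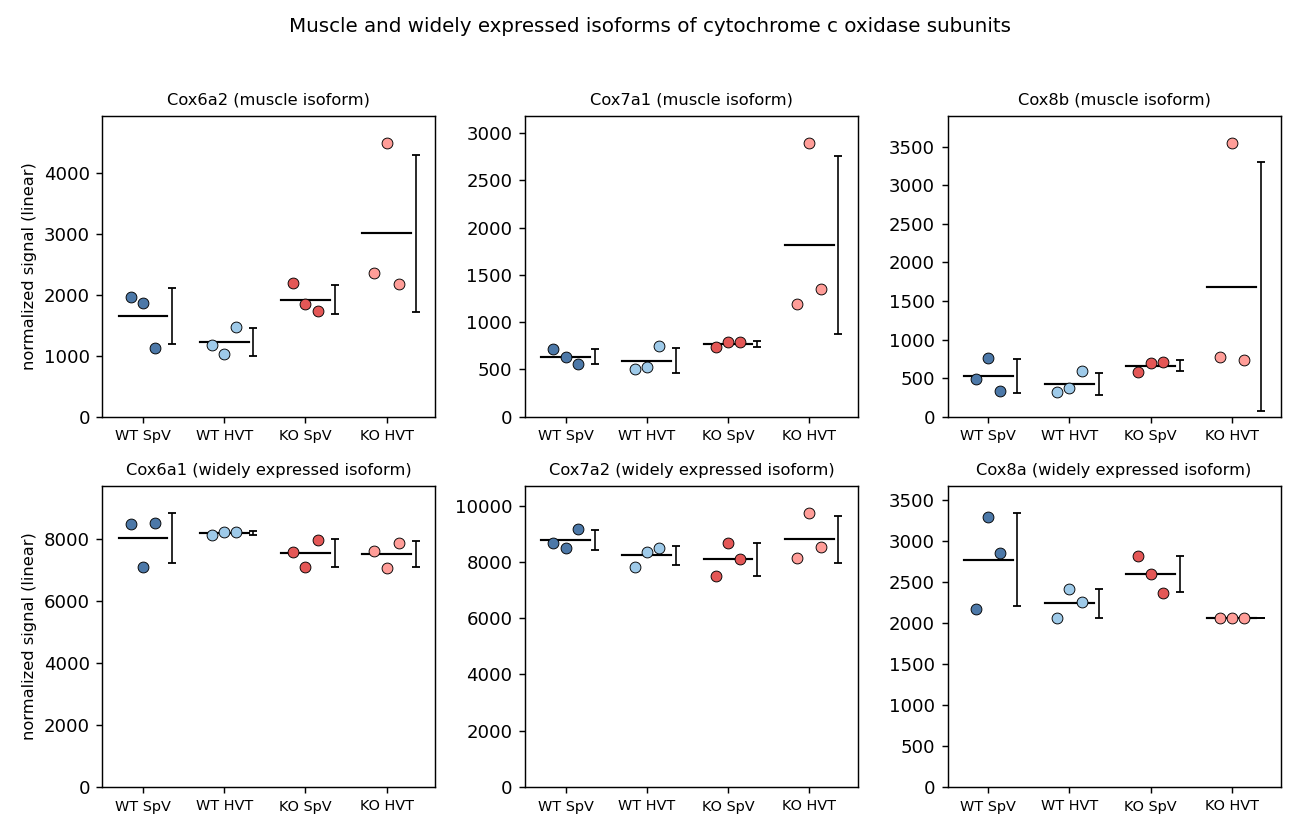
Normalized signals of the muscle isoforms Cox6a2, Cox7a1 and Cox8b and of their widely expressed partners Cox6a1, Cox7a2 and Cox8a on each array (dots), with the mean (line) and SD (bar) of the 3 arrays of each group. All 3 KO HVT arrays of Cox7a1 lie at 1190.2 or above while the other groups reach at most 789.2, and array 2 is the highest KO HVT dot of each muscle isoform.

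Cox4i2, the isoform of subunit IV that lung expresses and that takes part in oxygen sensing, was the member that fell with Nrf2 loss. It had 274.0, 385.5 and 375.0 in WT SpV, 164.0, 360.6 and 268.1 in WT HVT, 176.6, 188.2 and 241.9 in KO SpV and 125.3, 109.6 and 181.1 in KO HVT. The SpV groups were separated, and the HVT groups overlapped through WT HVT array 1. The differences were -0.72 ± 0.28 under SpV, -0.82 ± 0.28 under HVT (limma adjusted p = 0.226) and -0.77 ± 0.20 averaged (0.586-fold, adjusted p = 0.0495, with 0.008 to 0.124 over 26 alternatives, 9 of them under 0.05; -0.70 ± 0.21, adjusted p = 0.104, without KO HVT array 2). The call was kept without WT HVT array 1 or KO SpV array 1 and lost without any other array (adjusted p = 0.0539 to 0.124). As a list, endothelial markers moved in the same direction, 4 of 8 being called lower (2.13% of all genes were) with a median of -0.943. Kdr did not fall, at 2134.2 to 3048.1 on wild-type and 2418 to 3853 on Nrf2-/- arrays. All 8 genes overlapped between the genotypes over all arrays, Vwf at 1093 to 2137.7 and 333.8 to 2932.9. Cdh5 was at 1547.1 to 4470.6 on wild-type and 320.7 to 1804.2 on Nrf2-/- arrays. The part of the endothelial markers in this result was not tested. Cox4i1, the partner of Cox4i2, differed by 0.20 ± 0.14 under HVT (0.102 without KO HVT array 2).

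Cox6b2 and Cox8c, known from testis, had signals of 157.1 to 209.5 and 402.4 to 948.5 over the 12 arrays, and differed by -0.10 ± 0.17 and 0.31 ± 0.29 under HVT, with overlapping groups in both. Ndufa4, once counted to complex I and now to complex IV, had 3763.8, 4707.7 and 3887.7 in WT SpV, 2769.3, 3247.5 and 3110.4 in WT HVT, 1779.2, 3043.2 and 3169.8 in KO SpV and 3057, 4284.2 and 2828 in KO HVT. WT SpV was above both WT HVT and KO SpV. The differences were -0.43 ± 0.22 with ventilation in wild-type lungs (limma adjusted p = 0.703) and -0.66 ± 0.22 with Nrf2 loss under SpV (adjusted p = 0.223), with an interaction of 0.80 ± 0.31; without KO SpV array 1 the last 2 were -0.394 and 0.526.

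ATP synthase, with 17 genes, had medians of -0.210 with ventilation in wild-type lungs, 0.204 in Nrf2-/- lungs (0.040 without KO HVT array 2) and 0.297 with Nrf2 loss under HVT (0.170 without it), where 16 of 17 were above 0. In 6 every KO HVT array was above every WT HVT array, against 12.4% of all genes, and none was called. Atp5j2, the membrane subunit f, had 4780.6, 5836.1 and 5158.3 in WT SpV, 3585.2, 3983.4 and 4302 in WT HVT, 4022.2, 4674.5 and 3839.8 in KO SpV and 4259.8, 5742 and 3935.5 in KO HVT. WT SpV lay above WT HVT, by 0.41 in size (-0.41 ± 0.16, limma adjusted p = 0.514), and above KO SpV. Atp5l, the dimer-forming subunit g, was 2972.5, 2513.8 and 3205 in WT SpV, 2379.2, 2175.2 and 2419.6 in WT HVT, 2687, 2069.6 and 1721.4 in KO SpV and 2688.9, 2557.3 and 2765.7 in KO HVT. WT HVT was below both WT SpV and KO HVT, and the differences were -0.31 ± 0.16 with ventilation in wild-type lungs and -0.44 ± 0.16 with Nrf2 loss under SpV (adjusted p = 0.266), with an interaction of 0.64 ± 0.23.

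Atp5b, the catalytic beta subunit, had 3456.4, 4716.4 and 5125.3 in KO SpV and 5510, 8388.2 and 4420 in KO HVT, overlapping groups that differed by 0.43 ± 0.21 (limma adjusted p = 0.511). The Atp5b difference was 0.174 without KO HVT array 2, 0.248 without KO SpV array 1 and 0.007 without both. Atp5o, the stalk subunit OSCP, had 1085.8, 1194.9 and 1403.7 in WT HVT and 2041, 2999.6 and 1440.8 in KO HVT, all above WT HVT, by 0.75 ± 0.25 (adjusted p = 0.213; 0.482 without KO HVT array 2). Atp5g3, a gene for the ring subunit c, had 8059, 8448.1 and 9620.9 in WT HVT and 9352.2, 13105.5 and 9328.4 in KO HVT, which overlapped (0.27 ± 0.14, and 0.103 without KO HVT array 2). In all 3 of these genes KO HVT array 2 held the highest signal of the 12 arrays.

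Assembly factors build the complexes without staying in them, and 8 of the members are such genes. All 8 were above 0 with Nrf2 loss under HVT, with a median of 0.347 (0.188, 8 of 8 above 0, without KO HVT array 2). Ndufaf4, a complex I assembly factor, had 649.9, 426.8 and 514 in WT SpV, 666.5, 513.7 and 735.8 in WT HVT, 762.9, 652 and 668.4 in KO SpV and 947.9, 905.5 and 1074.8 in KO HVT. KO HVT was above every other group, and KO SpV above WT SpV. The difference was 0.61 ± 0.19 under HVT (limma adjusted p = 0.191) and 0.50 ± 0.13 averaged over breathing (adjusted p = 0.0545).

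Sdhaf1, which helps to place the iron-sulphur clusters of Sdhb, had 359.4, 319.6 and 282.8 in WT SpV, 253.4, 294.1 and 233.5 in WT HVT, 304, 304.5 and 332.2 in KO SpV and 361.4, 396.9 and 403.7 in KO HVT. KO HVT lay above all arrays of the other groups, by 0.55 ± 0.16 over WT HVT (limma adjusted p = 0.162), and KO HVT array 2 did not stand out in this gene. Sdhaf4, which protects the assembling flavoprotein, had 593.7, 869.5 and 623.7 in WT SpV and 396.5, 424 and 508.5 in WT HVT. These groups did not overlap, and the difference of -0.62 ± 0.22 (0.651-fold, adjusted p = 0.449) was the lowest of the 86 genes in that comparison.

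Other genes of the pathway were taken from 5 lists. Electron carriers and the enzymes that feed them (15 genes kept of 20 listed) had a median of 0.420 with ventilation in Nrf2-/- lungs, all 15 above 0 (0.190, 11 above 0, without KO HVT array 2), and 0.480 with Nrf2 loss under HVT, 13 above 0 (0.238, 11 above 0, without KO HVT array 2), and none was called in any comparison. The citric acid cycle (15 of 16) had medians of 0.237 and 0.354 in these comparisons (0.041 and 0.205 without KO HVT array 2). Under HVT respiratory chain assembly (17 of 25) was at 0.256 (0.188 without that array), carriers and uncouplers (8 of 11) at 0.338 (0.185) and biogenesis regulators (14 of 16) at 0.166 (0.100). Of the 69 genes kept in these lists 3 were called for genotype averaged over breathing, or 4.35%, near the 3.73% of all genes. Tfb1m, a methyltransferase of the mitochondrial ribosome, had 116.6, 143.3 and 217.7 in WT SpV, 101, 113.5 and 109 in WT HVT, 163.8, 232.9 and 163.9 in KO SpV and 302.5, 248.4 and 229.8 in KO HVT, and KO HVT array 2 was not its highest. It rose 2.22-fold with Nrf2 loss under HVT (1.15 ± 0.24, limma adjusted p = 0.0491; 1.18, adjusted p = 0.142, without KO HVT array 2) and by 0.69 ± 0.17 averaged over breathing (adjusted p = 0.0412). Without WT SpV array 1 the adjusted p was 0.0529 and, averaged, 0.0884, and without KO HVT array 2 the averaged one was 0.0759.

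Ppargc1b, a coactivator of mitochondrial biogenesis, had 236.6, 231.7 and 171.1 in WT SpV, 272.4, 215.9 and 248.2 in WT HVT, 604.3, 277.6 and 326 in KO SpV and 329.8, 538 and 419.2 in KO HVT. All Nrf2-/- arrays were above all wild-type arrays, and it rose by 0.78 ± 0.19 averaged over breathing (limma adjusted p = 0.0447; 0.69, adjusted p = 0.0991, without KO HVT array 2, and adjusted p = 0.0684 without WT SpV array 1). Idh3a, a subunit of the NAD-linked isocitrate dehydrogenase, had 753.6 to 957 in WT SpV, 876.6 to 1165.1 in WT HVT, 1249.9 to 1402.1 in KO SpV and 1289.1 to 2409.5 in KO HVT, again without overlap of the genotypes. Its averaged rise was 0.65 ± 0.15 (adjusted p = 0.0397; 0.504, adjusted p = 0.0505, without KO HVT array 2, and adjusted p = 0.0884 without WT SpV array 1). Cyc1, the cytochrome c1 of complex III, whose symbol lies outside the list, did not pass (0.43 ± 0.12, adjusted p = 0.0658), and nor did Slc25a4, the ADP/ATP carrier form of muscle and heart (0.58 ± 0.17, adjusted p = 0.0681).

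Probe sets of one and the same gene served as a check on these values. In the 45 members with several kept probe sets, all agreed in sign for 38 with Nrf2 loss under HVT, 34 with ventilation in Nrf2-/- lungs, 34 for the interaction, 23 with ventilation in wild-type lungs and 20 with Nrf2 loss under SpV. A further 8 probe sets that name a member together with another gene were left out.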

How the data were processed

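Signal intensities of 22690 probe sets on 12 Murine Genome 430A arrays were deposited by the authors, made with GCOS 1.4 per the submitters' processing notes. Per the labels the arrays were set to an average of 500, but the deposited values did not show it (trimmed means differed between arrays), so each array was scaled to a 2%-trimmed mean of 500 and quantile normalized. Genes were named by the platform annotation, and 20393 probe sets named 1 gene, 691 several and 1555 none (64 controls left out, of which 13 name a gene); 20364 IDs were in RefSeq and no symbol changed. Probe sets with a scaled signal of 100 on 3 arrays were kept (14554), and each of 9333 genes was represented by its brightest probe set on average over the arrays. Signals quoted are normalized intensities. Differences are of log2(signal + 16), which understates those of dim genes. limma 3.58.1 in R 4.3.3 fitted the 4 group means, with 8 residual and 4.44 prior degrees of freedom, 7 comparisons and Benjamini-Hochberg adjustment over 9333 genes, called at 0.05. The number of arrays limits the precision: median standard errors were 0.232 (a difference of 2 groups), 0.328 (interaction) and 0.164 (averages). No 2 arrays were duplicates (highest correlation 0.9801). Data were simulated with the mean and pooled spread of each of the 9333 genes, drawn independently and with no array standing apart. There, 53% of log2 differences of 1 and 94% of those of 2 were called between the ventilated groups, with 8 false calls. These shares need not hold for the real arrays, where KO SpV array 1 and KO HVT array 2 stood apart.

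The members and the gene and marker lists were chosen with earlier results of these data known. Named genes are the members called in any comparison, the tissue-restricted isoforms, and in each complex the gene of highest mean signal and those of smallest p. Replicate numbers were not used as pairs in the main fit. Correlations of deviations between arrays of the same number were -0.172 to 0.277, which cannot settle whether such arrays belonged together. Alternatives were other scalings, filters, pseudocounts, probe set rules, array weights, an actin covariate, a replicate block and leaving out each array.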

Additional observations from a re-analysis of the deposited data

Results flagged for a closer look

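On KO HVT array 2, 4 skeletal muscle markers that the filter left out of the comparisons had signals above every control array. Myh1, a fast myosin heavy chain, was at 14565.3 against at most 36.4 on the control arrays. Mylpf, the fast myosin regulatory light chain, was at 4930.5 against at most 34.6, Pvalb, parvalbumin, at 2058.5 against at most 90.5, and Myh4, a further fast myosin heavy chain, at 126.6 against at most 18.6. The other 2 KO HVT arrays do not share these levels: the 9 skeletal muscle markers summed to 1012.6 and 1141.4 there. On the same array 51 of the 86 respiratory chain genes had their highest signal of all 12 arrays.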

How the results depend on the processing

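The count of members called was 0 under all 26 alternatives for ventilation in wild-type lungs. For ventilation in Nrf2-/- lungs (0 called) it was 13 with array weights (15.1%, against 16.4% of all genes), 2 without both KO HVT array 2 and KO SpV array 1 (2.33% against 4.78%), and 0 to 3 leaving out 1 array (all genes 0% to 6.57%). For Nrf2 loss under SpV (0 called) it was 7 with array weights (8.14% against 17%), 2 with the actin ratio as a covariate (2.33% against 4.14%), 1 without both arrays (1.16% against 2%) and 0 to 2 leaving out 1 array (all genes 0.118% to 1.89%). For Nrf2 loss under HVT (1 called) it was 0 with equal medians, 0 without scaling, 8 with array weights (9.3% against 5.79%), 2 with the actin covariate (2.33% against 1.5%) and 0 to 5 leaving out 1 array (all genes 0.172% to 5.23%). The interaction (0 called) gave 1 with array weights (1.16% against 2.16%). Ventilation averaged (0 called) gave 8 with array weights (9.3% against 17.1%), 1 without both arrays (1.16% against 5.73%) and 0 to 3 leaving out 1 (all genes 0.0107% to 7.07%). Genotype averaged (3 called) gave 0 without scaling (all genes 1.01%), 1 without the filter (1.15% against 2.06%), 5 with a filter at 200 (6.02% against 4.66%), 1 without the intensity trend (1.16% against 2.9%), 17 with array weights (19.8% against 16.3%), 6 with the actin covariate (6.98% against 7.2%), 5 without both arrays (5.81% against 6.04%) and 0 to 5 leaving out 1 array (all genes 1.31% to 6.79%). It also gave 2 with equal medians (2.33% against 3.54%) and 2 with a pseudocount of 1 (2.33% against 3.65%). With a pseudocount of 64 it gave 4 (4.65% against 3.85%). With the replicate block it gave 5 (5.81% against 5.46%), and the block changed no other count of members called. Whether replicate numbers pair the samples was not settled. Array weights give less weight to arrays that stand apart, and their estimation stopped before it had converged; the cause of the other changes was not tested. The setting without both arrays was chosen after seeing the data.

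Leaving out 1 array, the median of the members was -0.202 to -0.096 for ventilation in wild-type lungs, 0.054 to 0.270 in Nrf2-/- lungs, -0.033 to 0.085 for Nrf2 loss under SpV, 0.185 to 0.439 under HVT, 0.177 to 0.425 for the interaction, -0.045 to 0.062 for averaged ventilation and 0.104 to 0.226 for averaged genotype. Without both arrays the HVT genotype median was 0.183. Without scaling the medians were -0.076 (ventilation in Nrf2-/- lungs), -0.463 (Nrf2 loss under SpV), -0.496 (under HVT), -0.002 (interaction) and -0.480 (averaged genotype), while the medians of all genes were -0.283, -0.468, -0.766, -0.312 and -0.610. Over the named genes, 987 values were recomputed: 911 kept direction and side of the threshold, 46 kept direction and lost the call, 15 kept it and gained one, and 15 reversed. Reversals without scaling, where all genes shift, were Ndufb7 -0.133 (averaged genotype), under HVT Ndufc1 -0.118, Sdhb -0.146, Uqcrfs1 -0.313, Atp5o -0.145, Sdhaf1 -0.240 and Cox8c -0.550, under SpV Sdhb -0.170, Uqcrc2 -0.074 and Ndufaf4 -0.124, and Sdha -0.028 with ventilation in Nrf2-/- lungs. Cox8c was -0.006 under HVT with the actin covariate. Uqcrc2 under SpV was -0.002 without KO SpV array 1 and -0.001 without both arrays, where the Sdhb interaction was -0.066. Leaving out 1 array, Uqcrc2 under SpV ran from -0.002 to 0.715 and the Sdhb interaction from 0.059 to 0.563.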
